A study of Mus musculus with 72 samples.

Results

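Foxi1 and 9 further genes of the renal intercalated cell were followed across kidney cortex and medulla of mice exposed to the radionuclide 177Lu. The members were chosen by symbol: Foxi1, Atp6v1b1, Atp6v0d2, Atp6v1g3, Slc4a1, Slc26a4, Slc4a9, Aqp6, Insrr and Car2. They are 10 of the 16593 genes named on the array, and each was read from its brightest probe. Balb/c mice had received 177Lu to an absorbed kidney dose of 0.3, 3 or 10 Gy, or were controls, and kidney tissue was taken at 1.5, 3 or 4.5 months. Cortex and medulla were hybridised separately to 72 Illumina MouseRef-8 arrays, 3 per combination of tissue, dose and time, which makes 24 groups. The labels name the nuclide for the controls as well, give them no dose, and do not say what the controls were given. They do not say either whether the 3 samples of a group are separate animals, so a p-value here covers the spread among samples within groups and no more. In limma this spread is pooled over all groups of a fit.

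Intercalated cells are the acid-base cells of the connecting tubule and collecting duct, where they lie scattered among principal cells. Type A cells secrete acid through an apical vacuolar H+-ATPase and return bicarbonate to the blood through the basolateral exchanger AE1. Type B and non-A, non-B cells carry the apical chloride/bicarbonate exchanger pendrin. Foxi1 is the forkhead transcription factor that intercalated cells need for their identity, and genes of the proton pump, of AE1 and of pendrin are among its known targets in mice.

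The windows of promoter sequence below are those of Foxi1, which binds DNA, and of 3 other members for which a window was present. They hold the 250 bases before the start given by RefSeq on mouse GRCm38.p6, written 5′ to 3′ on the strand of the gene. Capitals mark every match to TNTTTNC, a loose form of the forkhead motif, on either strand. Windows were present for 5 of the 10 members: Foxi1, Slc26a4, Atp6v1b1, Atp6v1g3 and Aqp6. The Foxi1 window lies at chr11:34208090-34208339 on the minus strand, that of Slc26a4 at chr12:31559985-31560234 on the minus strand, that of Atp6v1b1 at chr6:83742767-83743016 on the plus strand, and that of Atp6v1g3 at chr1:138273488-138273737 on the plus strand.
Foxi1: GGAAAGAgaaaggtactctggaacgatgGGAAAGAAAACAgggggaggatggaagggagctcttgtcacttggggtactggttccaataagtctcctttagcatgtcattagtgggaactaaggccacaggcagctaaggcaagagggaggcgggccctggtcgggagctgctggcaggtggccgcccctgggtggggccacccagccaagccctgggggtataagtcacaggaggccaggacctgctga
Slc26a4: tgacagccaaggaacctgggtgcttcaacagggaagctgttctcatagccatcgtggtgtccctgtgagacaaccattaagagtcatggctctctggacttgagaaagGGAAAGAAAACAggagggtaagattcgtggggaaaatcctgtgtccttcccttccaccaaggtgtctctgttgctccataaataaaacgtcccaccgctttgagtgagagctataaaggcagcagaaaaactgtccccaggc
Atp6v1b1: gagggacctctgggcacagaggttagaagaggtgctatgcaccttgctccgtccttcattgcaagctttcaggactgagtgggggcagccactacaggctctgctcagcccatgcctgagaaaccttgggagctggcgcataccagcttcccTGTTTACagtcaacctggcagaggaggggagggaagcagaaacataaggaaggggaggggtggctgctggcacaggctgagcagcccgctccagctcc
Atp6v1g3: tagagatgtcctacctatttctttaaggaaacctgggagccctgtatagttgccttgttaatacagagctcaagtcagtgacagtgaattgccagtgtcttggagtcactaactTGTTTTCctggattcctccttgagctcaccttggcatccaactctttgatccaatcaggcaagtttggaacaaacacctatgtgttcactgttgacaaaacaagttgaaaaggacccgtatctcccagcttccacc

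The forkhead core TGTTTAC, searched on both strands, was present in 1 of the 5 windows, that of Atp6v1b1, where it ended 92 bases before the start. It was present in 3.17% of the 32851 windows of all genes. Every TGTTTAC is also a match to TNTTTNC. The looser motif occurred in 4 of the 5 windows, all but that of Aqp6, and in 48.1% of all windows, so its presence does not set these genes apart. In the windows of Foxi1 and Slc26a4 the matches are on the opposite strand, and in both genes a pair of them overlaps in the same run of letters. That run, GGGAAAGAAAACAGG on the strand of each gene, is the longest that these windows share, at 15 bases, and it occurred on either strand in 2 of the 32851 windows. The longest runs shared by the other 9 pairs of member windows were 7 to 10 bases. The 2 windows that hold the 15-base run are those of Foxi1 and Slc26a4, from which it was taken, so its count could not be lower. The shared run was noticed after the sequences had been seen, and a match of letters is not a binding site.

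The deposited values are intensities that had been quantile-normalized, and levels are given here as log2 intensity. Quantile normalization leaves the arrays with nearly the same distribution, with medians of 143.4 to 143.9. An intensity of 150, or 7.23 on the log2 scale, was used as the floor below which a level has no order. The third control array of the cortex at 1.5 months stood apart: its mean correlation with the other cortex arrays was 0.65, against at least 0.97 for the others. All 8 proximal tubule and 6 thick ascending limb markers on the array were below the floor there, so it was left out and 71 arrays remained.

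The members ranged from probes under the floor to bright ones. Slc26a4, which encodes pendrin, Slc4a1, which encodes AE1, and Car2, the cytosolic carbonic anhydrase that supplies protons and bicarbonate, were bright, with mean intensities of 2550, 2362 and 2695 over the 71 arrays. Slc4a9, the basolateral transporter AE4 of type B cells, averaged 365. Foxi1 averaged 199 on its brightest probe and 143 and 140 on its 2 other probes. The proton pump subunits Atp6v1g3 and Atp6v1b1 averaged 179 and 157, and the receptor gene Insrr 142. Atp6v0d2, a membrane-sector subunit of the pump, and Aqp6, an intracellular water channel of type A cells, were below the floor on all 71 arrays and were not tested. Different probes have different brightness, so these values give no order of abundance. Insrr was below the floor on all medulla arrays, which leaves 8 members tested in the cortex and 7 in the medulla.

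Medulla and cortex of control kidneys differed in 6 of the 7 members kept in both tissues. Slc4a1 was higher in the medulla, and Slc26a4, Slc4a9, Atp6v1g3, Foxi1 and Car2 were lower there than in the cortex. The difference was 0.80 ± 0.10 log2 units for Slc4a1 and -1.64 ± 0.13 for Slc26a4 (medulla minus cortex, SE, limma over 71 arrays), so the genes of the 2 anion exchangers of type A and type B cells lay on opposite sides. Across all genes tested, 37.4% differed between the control tissues at an adjusted p under 0.05, 18.7% higher and 18.6% lower in the medulla, so a difference between the tissues is common.

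Slc26a4 ran from 9.72 through a median of 10.20 to 10.73 on the 9 control medulla arrays, and from 11.72 through 11.88 to 12.06 on the 8 control cortex arrays. The groups did not overlap, and the medulla level was 3.11-fold lower (limma, adjusted p = 2.55e-15). Slc4a1 ran from 11.13 through 11.57 to 11.88 on the control medulla arrays, and from 10.57 through 10.70 to 11.04 on the control cortex arrays. Here too the groups did not overlap, with the medulla 1.74-fold higher (adjusted p = 5.26e-09). Slc4a9 ran from 7.44 through 7.65 to 8.17 in control medulla, and from 8.81 through 8.95 to 9.22 in control cortex. It was 2.36-fold lower in the medulla (adjusted p = 7.94e-15), the second member of type B cells to lie lower there without overlap.

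Foxi1 differed less than the exchangers. It ran from 7.06 through 7.39 to 7.61 on the control medulla arrays, and from 7.48 through 7.58 to 8.01 on the control cortex arrays. The ranges overlapped, and the mean was lower in the medulla by -0.23 ± 0.07 log2 units (limma, adjusted p = 0.0102). On its 2 other probes, which averaged under the floor and were kept in the cortex only, the difference was -0.02 and -0.06. With the array that stood apart included, the difference of Foxi1 was -0.14 (adjusted p = 0.197) and that of Slc4a1 0.41 (adjusted p = 0.140), and neither passed.

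Of the pump subunits, Atp6v1g3 was lower in control medulla by -0.31 ± 0.06 log2 units (limma, adjusted p = 3.61e-05). Atp6v1b1, the subunit whose loss causes distal renal tubular acidosis with deafness in humans, differed by -0.12 ± 0.07 and did not pass (limma, adjusted p = 0.193). Atp6v1g3 and Atp6v1b1 were at or above the floor on 7 and 2 of 9 control medulla arrays. Part of their order there lies below it. Insrr, which encodes a receptor tyrosine kinase that responds to alkaline pH, was below the floor on all 9 control medulla arrays and at or above it on 7 of 8 control cortex arrays. It was kept through the cortex alone and has only a bound in the medulla, where it was at least 1.04-fold lower, so it is not counted among the members that differed. Car2, which principal cells, proximal tubule cells and red cells also express, was lower in control medulla by -0.21 ± 0.08 log2 units (adjusted p = 0.0301). The Car2 call was lost when any of 6 control arrays was left out, with adjusted p up to 0.271 without the first cortex control at 1.5 months, and with no intensity floor (adjusted p = 0.0536).

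The exposed arrays, whose means the control comparison does not use, gave the same directions. Both comparisons come from 1 joint fit and share its estimate of the spread, so they are not independent. All 7 members kept in both tissues differed between exposed medulla and exposed cortex, where 60.8% of all genes did, 28.9% higher and 31.9% lower. Slc4a1 was higher in exposed medulla by 0.74 ± 0.06 log2 units, and Slc26a4 and Slc4a9 were lower by -1.58 ± 0.07 and -1.20 ± 0.06 (limma, adjusted p at most 6.41e-17 for these 3). Foxi1 was lower by -0.38 ± 0.04 (adjusted p = 3.92e-12), and Car2 and Atp6v1g3 by -0.43 and -0.40. Atp6v1b1 was lower by -0.11 ± 0.04 (limma, adjusted p = 0.0140), but it was at or above the floor on only 15 of 27 exposed medulla arrays. Atp6v1g3 was at or above it on 14 of 27. Part of the order of both genes in the medulla therefore lies below the floor. Insrr was at or above the floor on 0 of 27 exposed medulla arrays and 16 of 27 exposed cortex arrays, so it was at least 1.04-fold lower in the medulla.

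**Figure D1:**
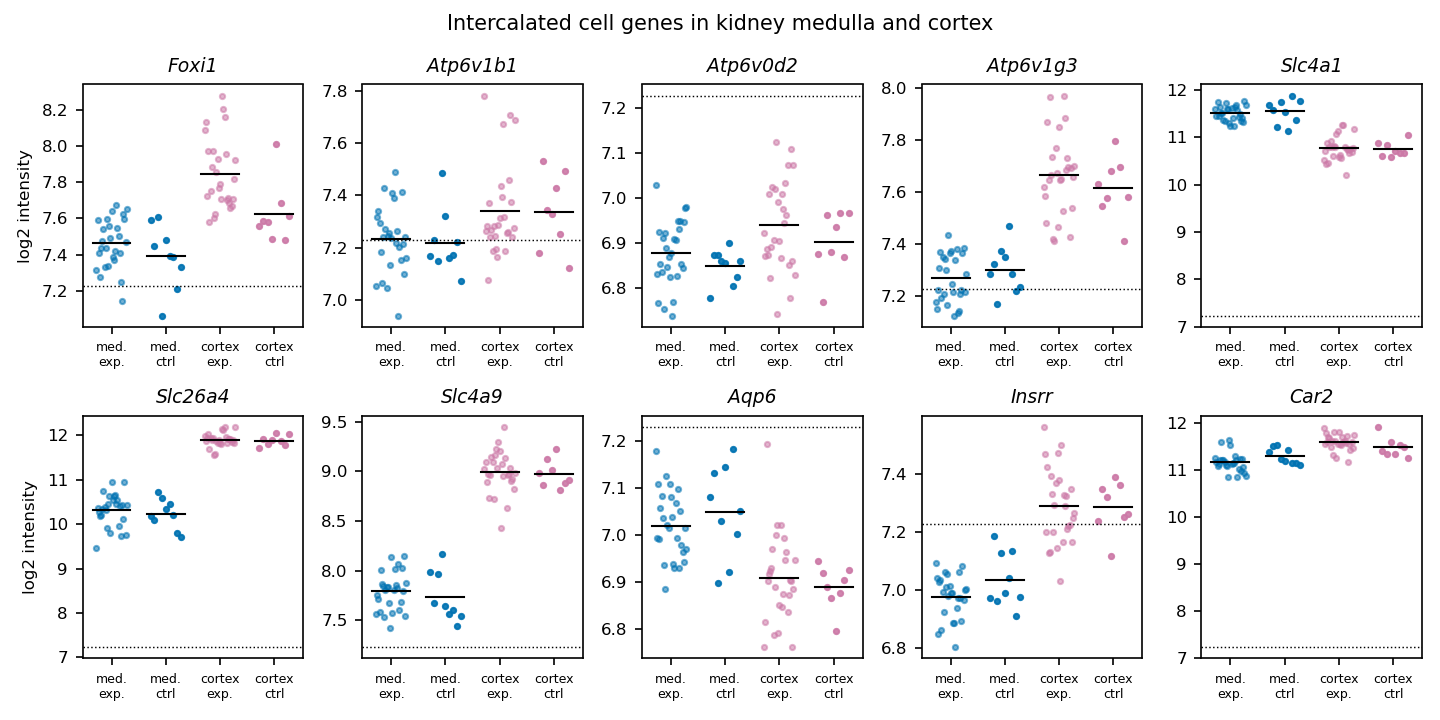
Log2 intensity of the 10 members in exposed medulla (27 arrays), control medulla (9), exposed cortex (27) and control cortex (8), 1 point per array, horizontal line at the mean, dotted line at the floor of 7.23. Vertical scales differ between panels. Slc26a4 and Slc4a9 lie lower in medulla without overlap, Slc4a1 lies higher, and Atp6v0d2 and Aqp6 stay under the floor.

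Other genes of the cell type, listed separately from the members, were mostly lower in control medulla as well. Of 12 other intercalated cell genes tested, 9 were lower and 3 higher, with a median difference of -0.57 log2 units against -0.01 over all genes. The joint fit kept a gene that reached the floor in either tissue, and a gene kept through the cortex alone tends to read lower in the medulla. How many genes of this list and of those below were kept that way was not counted. The largest differences were those of P2ry14, a receptor for UDP-glucose on intercalated cells, at 1.77 ± 0.16 higher, and of Car12, a membrane carbonic anhydrase, and Oxgr1, the alpha-ketoglutarate receptor of type B and non-A, non-B cells, at -1.36 ± 0.12 and -1.23 ± 0.08. Across all genes tested, 18.6% were lower and 18.7% higher in control medulla, which is the background for each of these lists. Of 19 other vacuolar ATPase subunits, which most cells use, 7 were lower and 1, Atp6ap1, was higher, and the rest did not pass. Atp6v1c2 and Atp6v1b2 differed most among them, by -0.66 ± 0.07 and -0.59 ± 0.06 (limma).

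Markers of neighbouring cells moved with the tissue too. Of 10 principal cell genes tested, 5 were higher and 3 lower in control medulla, led by Aqp4, a basolateral water channel, at 2.71 ± 0.22 log2 units, with Aqp2, the vasopressin-regulated water channel, at 1.27 ± 0.11. The principal cell list summed to intensities of 12042 to 16714 on control medulla arrays and 8984 to 12293 on control cortex arrays. Distal convoluted and connecting tubule markers were lower in 4 of 5 genes tested, and summed to 18864 to 29726 in control medulla and 33298 to 44502 in control cortex. Slc4a1 is also the anion exchanger of red cells. Of the 5 erythroid and blood genes tested, 0 passed between the control tissues in limma and 1, Hba-a1 (named after its value was seen), had an unadjusted p under 0.05 (0.42, adjusted p = 0.0763). Their median difference was 0.10, and the list summed to 9232 to 20225 in medulla and 7273 to 17334 in cortex. The part of these cells in the member differences was not tested, and in bulk tissue fewer cells of a type and less RNA per cell cannot be told apart.

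The dose question was then asked for each member. Averaged over the 3 times, 0 of the 8 members passed in the cortex at 0.3, 3 or 10 Gy, where 0.103%, 0.218% and 0.023% of all genes did. In the medulla 0 of the 7 members passed at 0.3, 3 or 10 Gy, where 0.023%, 0.0691% and 0.0115% of all genes did (limma, adjusted p under 0.05). At an unadjusted p under 0.05 there were 2 of 24 member tests in the cortex, both of Foxi1, and 1 of 21 in the medulla, that of Car2. Of all genes, 8.24%, 13.6% and 3.99% were under this p in the cortex at 0.3, 3 and 10 Gy, and 8.22%, 5.59% and 4.51% in the medulla. On their brightest probes, the members other than Foxi1 and Car2 differed from control by at most 0.15 log2 units in the cortex and 0.21 in the medulla. The 2 Car2 probes disagreed in the cortex. The brighter differed by 0.10, 0.12 and 0.04 at 0.3, 3 and 10 Gy, and the second by -0.26, -0.24 and -0.10. With few genes called anywhere, a missed threshold does not show that a member did not differ.

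Averaged over time, Foxi1 in the cortex was the member farthest from its controls. At 1.5 months it read 7.56 and 7.58 in controls, 7.62, 7.86 and 7.93 at 0.3 Gy, 8.09, 8.13 and 7.72 at 3 Gy, and 7.96, 7.70 and 7.71 at 10 Gy. All 9 exposed arrays of that time lay above both controls. At 3 months it read 7.58, 7.49 and 8.01 in controls, 7.77, 7.79 and 7.71 at 0.3 Gy, 7.97, 7.58 and 7.75 at 3 Gy, and 7.69, 7.65 and 7.67 at 10 Gy. The third control array, at 8.01, was the highest of that time, and all 3 doses overlapped the controls. At 4.5 months it read 7.68, 7.48 and 7.61 in controls, 8.28, 8.20 and 8.16 at 0.3 Gy, 7.88, 7.97 and 7.60 at 3 Gy, and 7.70, 7.82 and 7.92 at 10 Gy. The 3 arrays of 0.3 Gy were the highest Foxi1 values of all cortex arrays.

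Averaged over time, Foxi1 in the cortex differed from control by 0.31 ± 0.08 log2 units at 0.3 Gy, 0.24 ± 0.08 at 3 Gy and 0.14 ± 0.08 at 10 Gy (SE, limma). The adjusted p were 0.135, 0.199 and 0.998, so none passed, although Foxi1 ranked 23 of 8700 genes by p at 0.3 Gy. Exposed arrays lay above the control mean of their time in 23 of 27 cases. Without the third control array at 3 months the difference at 0.3 Gy was 0.36 and passed (adjusted p = 0.0381). The direct difference of 10 Gy from 0.3 Gy was -0.17 ± 0.07 (adjusted p = 0.706), so no order of the doses was established. In that comparison 0 of 8 members and 0.046% of all genes passed in the cortex, and 0 of 7 members and 0% in the medulla.

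In the order of the 12 cortex group means, Foxi1 at 0.3 Gy at 4.5 months (8.21 ± 0.06, SD) came first, followed by 3 Gy at 1.5 months (7.98 ± 0.23). This gap was larger than the pooled SD of the neighbouring groups. From there down to controls at 3 months (7.69 ± 0.28) and 10 Gy at 3 months (7.67 ± 0.02), neighbours did not differ beyond their spread. The 2 lowest means were those of controls at 4.5 months (7.59 ± 0.10) and 1.5 months (7.57 ± 0.02), which lay below the next group by a gap barely larger than the spread, at 0.079 against 0.074.

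**Figure D2:**
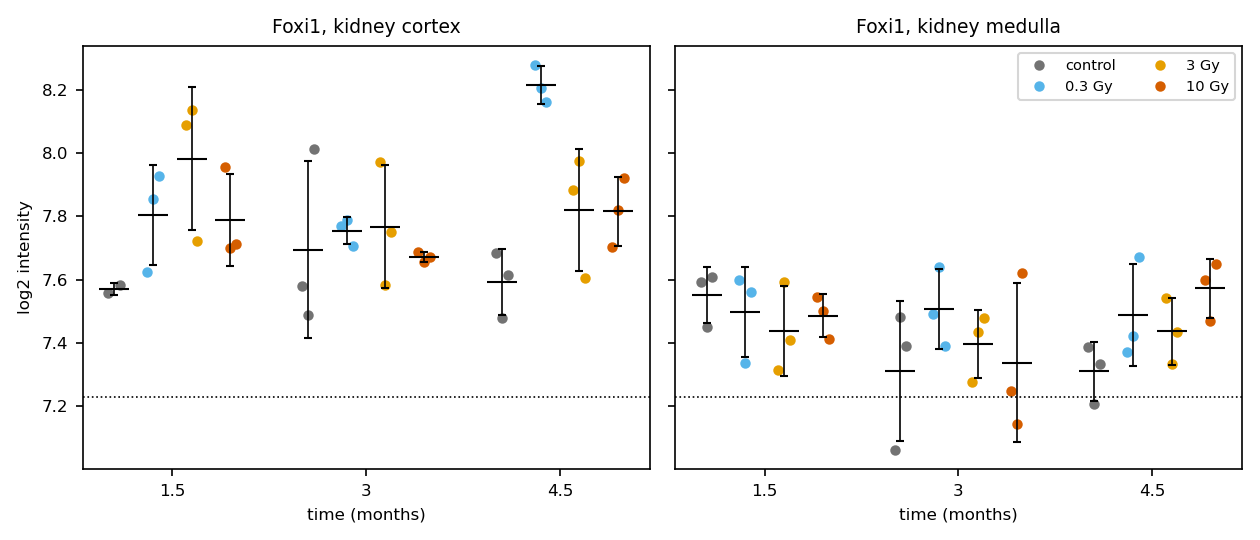
Log2 intensity of Foxi1 by time and dose in cortex (left) and medulla (right), 1 point per array, black line and bars at the mean ± SD of 3 arrays (2 for cortex controls at 1.5 months), dotted line at the floor of 7.23. The cortex arrays of 0.3 Gy at 4.5 months lie between 8.16 and 8.28, above all other cortex arrays.

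A single comparison passed among the 72 member tests of the cortex: Foxi1 rose at 0.3 Gy at 4.5 months, by 0.62 ± 0.13 log2 units or 1.54-fold (limma, adjusted p = 0.0259, rank 10 of 8700). It averaged 8.21 ± 0.06 in 0.3 Gy cortex and 7.59 ± 0.10 in control cortex (SD, n = 3 each), without overlap. In that comparison 0.184% of all genes passed, and 1 of 8 members did. In the other 8 cortex comparisons at single times 0 members passed, as did 0%, 0.0115% and 0% of all genes at 0.3, 3 and 10 Gy at 1.5 months, 0.023%, 0.046% and 0% at 3 months, and 0.0345% at 3 Gy and 0% at 10 Gy at 4.5 months. The call is fragile: it was lost when any of the 6 arrays was left out, with adjusted p between 0.0521 and 0.181, and with the array that stood apart included (adjusted p = 0.322), while the difference itself stayed between 0.57 and 0.67 with an array left out. It also did not pass with only the compared groups fitted (adjusted p = 0.0733). The difference was 0.41 with the mean of all kept probes and 0.79 with normexp background correction, and passed in both. The 2 dimmer Foxi1 probes differed by 0.32 and 0.28 in the same direction. Their mean intensities over the arrays used, 143 and 140, lay under the floor, so part of their order may lie below it. The mean of all kept probes includes both and shares this limit. At 3 and 10 Gy at 4.5 months the brightest probe differed by 0.23 and 0.22 and did not pass, and Foxi1 did not pass the dose by time test (adjusted p = 0.838), which 0 members passed in either tissue and 0.023% of all genes passed in the cortex and 0% in the medulla.

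On their brightest probes, the other 7 tested members lay above control in the same comparison without passing. Insrr differed by only 0.04, and the second Car2 probe by -0.04 against 0.18 on the brighter one. This comparison was taken up because Foxi1 passed in it. The share of all genes above control was not counted, so the counts above control, here and for the lists below, are descriptions only. Slc26a4 read 12.13, 12.13 and 12.19 at 0.3 Gy and 11.87, 11.77 and 12.02 in controls, a difference of 0.26 ± 0.11 (limma, adjusted p = 0.444). Its 3 exposed arrays were above all 3 controls. Slc4a9 read 9.07, 8.95 and 9.45 at 0.3 Gy and 8.81, 8.88 and 8.91 in controls, a difference of 0.29 ± 0.16 (adjusted p = 0.642), again without overlap. At 3 Gy at 3 months Slc4a9 lay below its cortex controls without overlap. The share of all genes without overlap was not counted for any comparison, so the separations of single members are descriptions only. Slc4a1 overlapped its controls, at 10.55, 11.25 and 11.26 in 0.3 Gy cortex and 10.67, 10.67 and 11.04 in control cortex (0.23 ± 0.18, adjusted p = 0.834). The median over the 8 members was 0.20 log2 units, against 0.02 over all genes tested.

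Beside them, 9 of 12 other intercalated cell genes were above 0 with a median of 0.22, and 0 of them passed. Rhbg, an ammonia channel, was at 0.49 ± 0.19, and P2ry14 at -0.81 ± 0.30. Of the other pump subunits, 13 of 19 were above 0 with a median of 0.04, and 0 passed. Erythroid and blood genes were above 0 in 5 of 5, with a median of 0.38 and sums of 16111 to 20860 at 0.3 Gy and 12109 to 17334 in controls. Distal convoluted and connecting tubule genes were above 0 in 5 of 5, with a median of 0.10 and sums of 40879 to 46670 at 0.3 Gy and 33298 to 44502 in controls. Principal cell genes were above 0 in 4 of 10, with a median of -0.06, and macrophage genes in 0 of 5, with a median of -0.35. None of these lists had a gene that passed, and their part in the Foxi1 value was not tested.

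**Figure D3:**
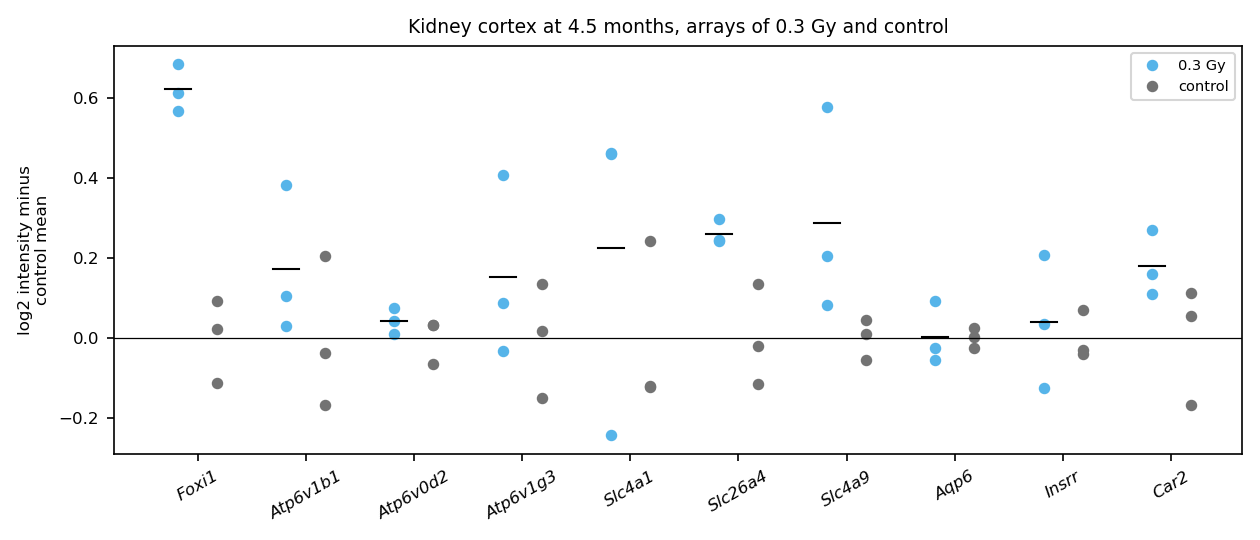
Log2 intensity minus the mean of the 3 controls for each member in cortex at 4.5 months, with 3 arrays of 0.3 Gy (left of each pair, black line at their mean) and 3 control arrays. Foxi1 stands 0.62 above control without overlap, and Atp6v0d2 and Aqp6, under the floor, stay near 0.

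No member other than Foxi1 passed at any dose or time in the cortex, and their levels are given by group. The 12 group means of Slc26a4 ran from 11.76 ± 0.16 (SD) at 0.3 Gy at 1.5 months to 12.15 ± 0.03 at 0.3 Gy at 4.5 months, so the lowest and the highest belonged to the same dose. Only the highest stood apart from its neighbour by more than the pooled SD. Those of Slc4a1 ran from 10.56 ± 0.14 at 3 Gy at 1.5 months to 11.02 ± 0.41 at 0.3 Gy at 4.5 months, and no neighbours differed beyond their spread. Those of Slc4a9 ran from 8.87 ± 0.05 in controls at 4.5 months to 9.16 ± 0.26 at 0.3 Gy at 4.5 months. Atp6v1g3 ran from 7.56 ± 0.07 to 7.83 ± 0.16, Atp6v1b1 from 7.20 ± 0.04 to 7.51 ± 0.17, Insrr from 7.23 ± 0.05 to 7.41 ± 0.19, and Car2 from 11.38 ± 0.19 to 11.73 ± 0.17. The group of 0.3 Gy at 4.5 months thus held the highest mean of Foxi1, Slc26a4, Slc4a1 and Slc4a9, and not that of Atp6v1g3, Atp6v1b1, Insrr or Car2.

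In the medulla Foxi1 was near the floor and did not pass at any dose or time. Its 12 group means ran from 7.31 in controls at 4.5 months to 7.57 at 10 Gy at 4.5 months, and 33 of 36 arrays were at or above the floor. At 1.5 months it read 7.59, 7.45 and 7.61 in controls, 7.60, 7.34 and 7.56 at 0.3 Gy, 7.31, 7.59 and 7.41 at 3 Gy, and 7.54, 7.50 and 7.41 at 10 Gy. At 3 months it read 7.06, 7.48 and 7.39 in controls, 7.49, 7.64 and 7.39 at 0.3 Gy, 7.28, 7.44 and 7.48 at 3 Gy, and 7.25, 7.14 and 7.62 at 10 Gy. At both times all 3 doses overlapped the controls. The averaged differences from control were 0.11 ± 0.07, 0.03 ± 0.07 and 0.07 ± 0.07 log2 units at 0.3, 3 and 10 Gy, and 18 of 27 exposed arrays lay above the control mean of their time. At 10 Gy at 4.5 months Foxi1 read 7.60, 7.47 and 7.65, against 7.39, 7.21 and 7.33 in controls, without overlap but with an adjusted p of 0.913 (limma, 0.26 ± 0.11). The difference between the tissues in the response to 0.3 Gy was tested directly and was -0.20 ± 0.10 (medulla minus cortex, adjusted p = 0.864), so the cortex is not shown to differ from the medulla. In the tests of the response difference at the 3 doses, 0 of 8 members and 0% of all genes passed.

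Averaged over time, Car2 was the member farthest from control in the medulla. At 1.5 months it read 11.38, 11.50 and 11.52 in controls, 11.10, 11.08 and 10.84 at 0.3 Gy, 11.26, 11.17 and 11.08 at 3 Gy, and 11.20, 10.85 and 11.01 at 10 Gy. All 9 exposed arrays lay below the 3 controls. On the second Car2 probe the differences at that time were 0.06, 0.26 and -0.06 at 0.3, 3 and 10 Gy, so at 0.3 and 3 Gy it ran the other way. At 3 months the brighter probe read 11.23, 11.19 and 11.42 in controls, 11.63, 11.53 and 11.12 at 0.3 Gy, 11.13, 11.20 and 11.59 at 3 Gy, and 11.23, 10.97 and 11.22 at 10 Gy, and all 3 doses overlapped the controls. The differences were 0.14, 0.03 and -0.14. At 4.5 months the controls were lower, at 11.15, 11.15 and 11.09, against 11.14, 11.15 and 11.28 at 0.3 Gy, 11.21, 11.20 and 11.17 at 3 Gy, and 11.05, 10.94 and 10.86 at 10 Gy. Averaged over time, Car2 at 10 Gy differed by -0.26 ± 0.07 log2 units (limma, unadjusted p = 0.000861, adjusted p = 0.762, rank 9 of 8677), with 9 of 9 arrays below the control mean of their time. The second Car2 probe, with a mean intensity of 287, differed by -0.0028 in that comparison, so the probes of the gene disagree.

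Of the 63 member tests at single times in the medulla, 0 passed in limma and 8 had an unadjusted p under 0.05, as did between 3.76% and 10.5% of all genes in the 9 comparisons. After adjustment, 0% of all genes passed at 1.5 months at any dose, 0.0576%, 0.0461% and 0% at 3 months at 0.3, 3 and 10 Gy, and 0.0691%, 0.0115% and 0.0115% at 4.5 months. Slc26a4 at 0.3 Gy at 4.5 months read 10.63, 10.66 and 10.45, against 10.20, 9.81 and 9.72 in controls, a difference of 0.67 ± 0.27 (adjusted p = 0.581). The 3 exposed arrays were above the controls. At 3 and 10 Gy at 4.5 months Slc26a4 differed from the same controls by 0.57 and 0.47, so the difference was not particular to 0.3 Gy. At 3 Gy at 3 months it differed by -0.22, below its controls without overlap. Its highest and lowest medulla group means were those of 0.3 Gy (10.58 ± 0.11, SD) and controls (9.91 ± 0.26), both at 4.5 months. Slc4a9 had its extremes in the same groups, at 7.89 ± 0.11 at 0.3 Gy and 7.53 ± 0.08 in controls (limma, 0.36 higher, adjusted p = 0.668). At 3 and 10 Gy at 4.5 months Slc4a9 was 0.20 and 0.33 higher than these controls. Slc4a1 means in the medulla ran from 11.39 ± 0.20 at 0.3 Gy at 3 months to 11.67 ± 0.27 in controls at 4.5 months. Slc26a4 varied most of the members within the medulla, with an SD of 0.36 over 36 arrays against 0.15 over 35 cortex arrays. In the controls alone, 0 members differed between 4.5 and 1.5 months in either tissue, where 0.0115% of genes in the cortex and 0.0346% in the medulla did. The smallest unadjusted p there was that of Car2 in the medulla (-0.33 ± 0.12, unadjusted p = 0.00899, adjusted p = 0.255).

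**Figure D4:**
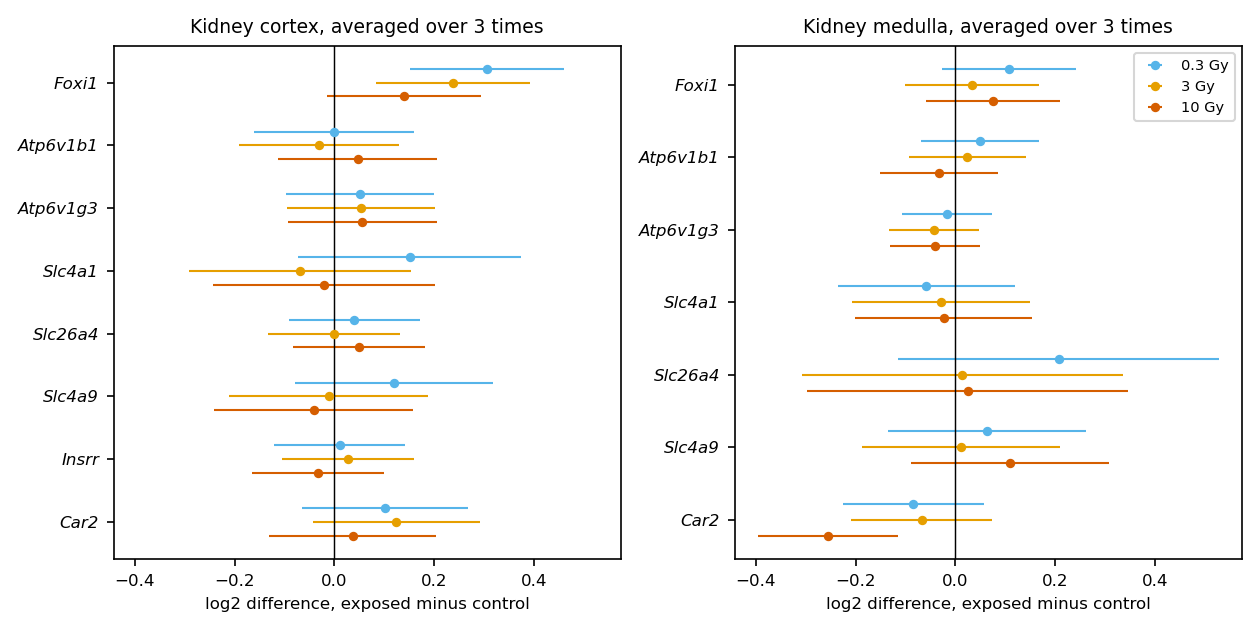
Differences from control averaged over the 3 times (log2, exposed minus control) with 95% confidence intervals from limma, for 0.3, 3 and 10 Gy in cortex (8 members) and medulla (7 members). Foxi1 in the cortex at 0.3 Gy (0.31) and 3 Gy (0.24) and Car2 in the medulla at 10 Gy (-0.26) have intervals that leave out 0 before adjustment.

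Apart from dose and time, the members were compared array by array. Each array's deviation from its group mean was taken, so that dose, time and tissue differences were removed, and the 13 relations of Foxi1 with the other kept members were tested by permutation within groups. In the cortex Foxi1 varied with Slc26a4 at Pearson r = 0.68 and Spearman rho = 0.69 over 35 arrays (permutation, adjusted p = 0.00572 and 0.0065). Without the 2 arrays farthest in Foxi1 the Pearson r was 0.72. Insrr followed at r = 0.58 and rho = 0.60 (permutation, adjusted p = 0.0114 and 0.0102), Atp6v1g3 at r = 0.56 and rho = 0.59 (0.00572 and 0.0065), and Slc4a9 at r = 0.40 and rho = 0.51 (0.0243 and 0.0268). Their Pearson r without the 2 farthest arrays were 0.50, 0.56 and 0.38. Insrr was at or above the floor on 23 of 35 cortex arrays, so part of its order lies below it. Slc4a1 had r = 0.36 and rho = 0.41 and did not pass (permutation, adjusted p = 0.0629 and 0.0617), and Car2 and Atp6v1b1 had r = -0.19 and -0.01. The share of all genes with such an r with Foxi1 was not counted in either tissue. Genes outside the members, picked from the ranking below, reached similar values in the cortex, such as Slc22a2 at 0.57 and Cox6b2 at 0.56. These relations are thus not shown to be particular to the members.

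The medulla gave fewer relations. Atp6v1g3 had r = 0.46 and rho = 0.43 over 36 arrays (permutation, adjusted p = 0.0438 and 0.0617), with r = 0.42 without the 2 farthest arrays, and it passed only by Pearson. Slc26a4 had r = 0.19 and Slc4a9 r = 0.12, and neither passed. Atp6v1b1 had r = -0.46 and rho = -0.46 (permutation, adjusted p = 0.0642 and 0.0617). Foxi1, Atp6v1g3 and Atp6v1b1 lie near the floor in the medulla, with 33, 21 and 17 of 36 arrays at or above it, and whether the tissues differ in these relations was not tested.

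**Figure D5:**
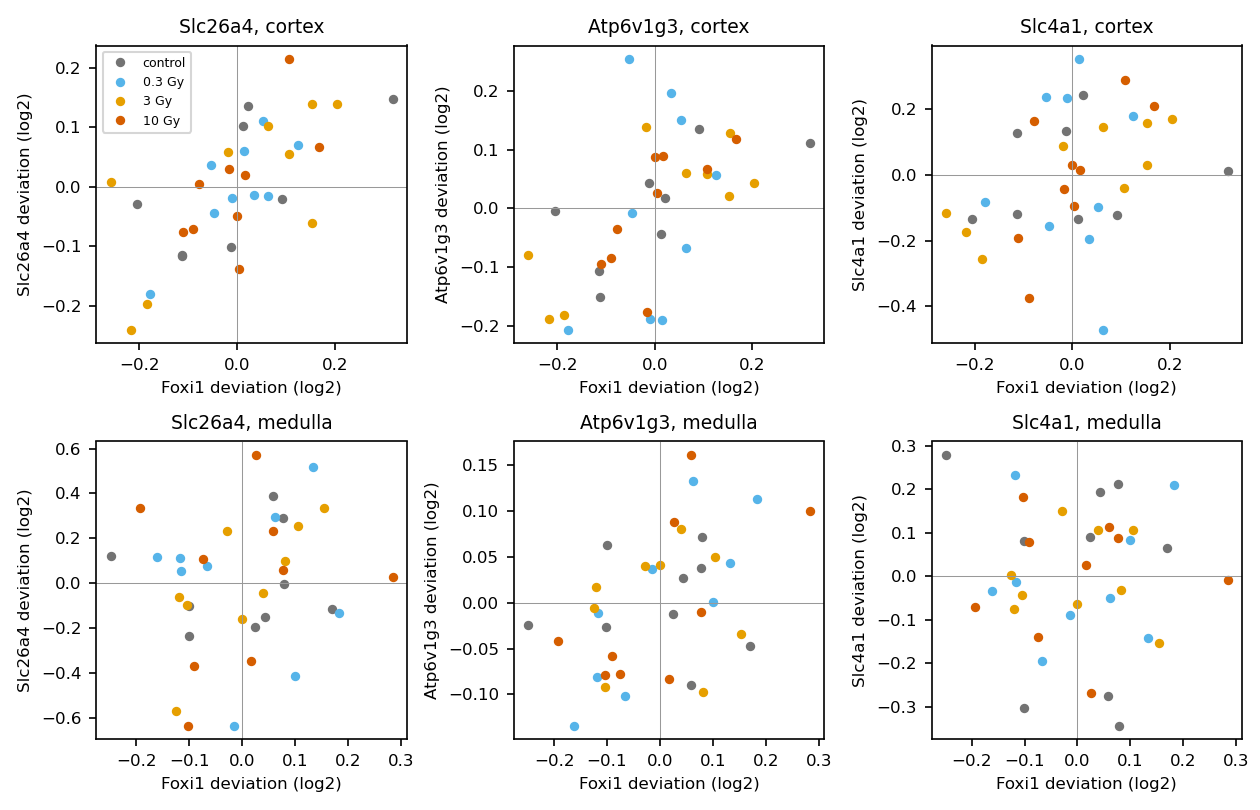
Deviation of Slc26a4, Atp6v1g3 and Slc4a1 from the group mean (log2, vertical) against that of Foxi1 (log2, horizontal) on 35 cortex arrays (top) and 36 medulla arrays (bottom), coloured by dose. In cortex the points of Slc26a4 rise with Foxi1 (r = 0.68), and in medulla they scatter (r = 0.19).

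The same deviations also moved with markers of neighbouring segments. The mean of 5 distal convoluted and connecting tubule genes correlated in the cortex with Slc26a4 (r = 0.67), Slc4a9 (0.66), Atp6v1g3 (0.61) and Foxi1 (0.60), and with Atp6v1b1 at -0.42. The Spearman rho were 0.67, 0.68, 0.64, 0.62 and -0.45. In the medulla it correlated with Slc26a4 at r = 0.83 and rho = 0.75 and with Slc4a9 at r = 0.65 and rho = 0.64. These are 7 of the 9 relations that passed among 75 tested against 5 marker lists (permutation, adjusted p between 0.00638 and 0.0485 for Pearson). That of Atp6v1b1 passed only by Pearson (Spearman adjusted p = 0.0530). The other 2 were those of Slc4a9 in the medulla with proximal tubule genes (r = 0.55) and with thick ascending limb genes (r = -0.53). Without the 2 farthest arrays the 9 relations kept their signs. Erythroid and blood genes had r = -0.01 with Slc4a1 in the cortex. The part of these neighbouring cells in the relations among the members was not tested, and the marker relations were added after those of Foxi1 had been seen.

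Among the 36 other pairs of members, 0 passed and 8 had an unadjusted permutation p under 0.05. Slc26a4 and Slc4a9, both of type B cells, had r = 0.44 in the cortex and 0.54 in the medulla (permutation, adjusted p = 0.0691 and 0.0986). Slc26a4 and Slc4a1 had r = 0.47 in the cortex (adjusted p = 0.0781).

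Genes most like Foxi1 were ranked by the lower of the correlations in the 2 tissues, over 35 cortex and 36 medulla arrays and 8356 genes. The first 5 outside the members were Slc22a2, an organic cation transporter (r = 0.57 in cortex and 0.52 in medulla), Cox6b2, Zfp790, Aldh1a1 and Plcg2. Of the members, Atp6v1g3 ranked 9, Slc26a4 581, Slc4a9 1176 and Atp6v1b1 7985. The mean deviation of the kept members was most closely followed by Tmem117 (r = 0.68 and 0.75), Atp6v1c2, a pump subunit of restricted expression (0.69 and 0.65), Oxgr1 (0.70 and 0.59), Hhatl and Dcun1d3, among 8357 genes. These rankings describe the arrays and carry no test.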

How the data were processed

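RNA from cortex and medulla was measured on 72 Illumina bead arrays. The deposited intensity values used here had been quantile-normalized by the authors, as the sorted columns show (largest gap 1.26 units); the software is not given in the sources used here. The number of arrays limits the precision. A further 144 deposited columns from before normalization, 72 of them signals, carry numbers that no label gives and were not used here, so no detection p-value enters.

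The log2 of each intensity was taken with no offset. Of 25697 probes, 23978 had 1 gene symbol, 0 several and 1719 none. Each gene was read from the probe with the highest mean over 71 arrays, and a probe was kept where it reached 150 on all arrays of at least 1 group, which left 8700 genes in cortex, 8677 in medulla and 9020 in the joint fit. The fit was by limma 3.58.1 in R 4.3.3, with a mean per group and eBayes with a trend, two-sided, with Benjamini-Hochberg adjustment over all genes and a threshold of 0.05. Correlations used 100000 permutations within groups (Python 3.11.15, numpy 2.4.6). Dose differences share the control arrays of their time. The procedure was tested on simulated data.

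The members, gene lists and comparisons were chosen with earlier results of these data known. All 10 members are described. Of other lists, genes called in an averaged dose comparison were to be named, and at most 4 per list for medulla minus cortex; Rhbg and P2ry14 at 0.3 Gy were named after their values were seen. Promoter windows were limited to the 250 bases before the start, a choice made after the files were seen. Same-numbered arrays were checked for pairing: the median correlation of their deviations between groups of a tissue lay between -0.07 and 0.02. For cortex and medulla of the same dose, time and number it was 0.13, with 22 of 35 above 0.1. For cortex and medulla of the same dose and time but another number it was -0.11 over 70 pairs. Pairing of the tissues was thus neither established nor excluded, and the main fit did not pair them. Alternatives were array weights, cyclic loess, normexp with an offset of 50, no floor, the mean of all probes, no trend, only the compared groups, the replicate block, the array that stood apart, and each array left out in turn.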

Additional observations from a re-analysis of the deposited data

Results flagged for a closer look

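On the control cortex array that was left out, Slc4a1 read 14.18, above the highest of the 8 other cortex controls at 11.04. Car2 read 12.03 there, above the highest of the other controls at 11.91. The array enters the report only where it is said to be included. Foxi1, Slc26a4, Slc4a9 and Atp6v1g3 read 6.80, 6.88, 6.91 and 6.93 on that array, all below the floor of 7.23, and the erythroid and blood genes summed to 62932, against 7273 to 17334 on the other cortex controls. The proximal tubule genes summed to 989, against 78069 to 88366. The origin of the array's RNA was not tested.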

How the results depend on the processing

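The counts of members called were recomputed under 1028 alternatives over 22 results, and 1015 stayed within 1.5 times. Of 1456 alternatives for 20 single member results, 1438 kept direction and side of the threshold, 17 lost the call, 1 gained it and 0 reversed. The single-time count in the cortex, 1 (Foxi1 at 0.3 Gy, 4.5 months), was 0 with the array that stood apart and 0 with only the compared groups (adjusted p = 0.0733), and ran from 0 to 1 with each array left out. The single-time count in the medulla, 0, was 1 with array weights (Car2, lower). The averaged count at 0.3 Gy in the cortex ran from 0 to 1 with each array left out. The count of medulla relations with Foxi1, 1, was 0 with cyclic loess and 0 without removing group means. The motif count was 4 with TNTTTNC and 1 with TGTTTAC. The count of members that differed between control tissues, 7, ran from 6 to 7 with each array left out and was 5 with the array that stood apart; in exposed tissue it was 8 to 10, where no floor added Aqp6 and Atp6v0d2. These tissue counts include Insrr, which has only a bound. With the replicate block the counts of calls by limma did not move, at 1 for single times in the cortex and 7 and 8 for the tissues, and the Foxi1 relations numbered 5 in the cortex and 1 in the medulla. The cause of these moves was not tested. Groups of 3 arrays limit the precision of the dose comparisons, and Foxi1 lies near the floor in the medulla.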
